A study of Mus musculus with 12 samples.

Results

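The gluconeogenesis genes described here were 8 genes chosen by name, of 32285 in the matrices: *Pcx*, *Pck1*, *Fbp1*, *G6pc*, *Slc37a4*, *Tat*, *Sds* and *Ppargc1a*. They were measured by single-nucleus RNA sequencing in 3 sample types from each of 8 mice. Liver (L) was a snap-frozen piece of the median lobe. Cell Suspension (CS) was the cells of the same liver after collagenase digestion, straining, and repeated spins and washes in medium with serum. Primary Hepatocytes (PH) were the same cells after 24 hours on collagen. All groups came from untreated, chow-fed wild-type males of 10 to 12 weeks; the labels give the strain as C57BL6J, and the study's methods give C57BL/6NTac. L was taken after a rinse of the liver with buffered salt solution, so it had seen the first step of the isolation. CS and PH had both been in medium with serum. PH had then been in medium with dexamethasone and insulin, and had been released with trypsin. Culture and hormone exposure therefore cannot be told apart. The 24 samples were mixed as nuclei, 4 to a pool, in 6 pools; L and PH met only in 2 of them.

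Of 53467 nuclei, 44788 were hepatocyte nuclei (15166 of L, 13339 of CS and 16283 of PH), and these carry the main values. Among them, 73 of PH carried the authors' names for tissue or isolated hepatocytes, as did 14998 of L and 12589 of CS. The others lay in cultured clusters. The paper proposes that such PH nuclei may be partially differentiated or misassigned. Of the 4805 *Pck1* UMIs of PH, clusters 0, 1, 14, 17 and 8 held 1309, 1189, 295, 627 and 289. The 73 nuclei held the rest. The same clusters held 2377, 2695, 462, 493 and 480 of the 8041 *G6pc* UMIs of PH. For *Pcx* they held 12947, 6022, 1661, 652 and 726 of 22363. PH levels over all hepatocyte nuclei include these 73 nuclei. Without them all 8 genes were still called lower in PH, and their part in other PH values was not tested. The unique molecular identifiers (UMIs), each of which marks 1 captured RNA molecule, summed over the hepatocyte nuclei of a sample came to between 6872031 and 29023569 in L, between 2104087 and 17452582 in CS and between 9852007 and 21226254 in PH. Across pools, 337 barcodes were used more than once. The 10 hepatocyte markers were all detected in the hepatocyte nuclei, and their summed level was 14000 to 18538 CPM (UMIs scaled to a common sample total) in L, 17666 to 21477 in CS and 6524 to 9987 in PH, so the markers of the cell type were themselves lower after culture. The summed level of 10 endothelial markers in the same nuclei was 33.3 to 53.2 CPM in L, 37.9 to 77.3 in CS and 118 to 174 in PH, and that of 10 stellate markers had a median of 77.0, 79.3 and 218 CPM (up to 662 in PH). The part of these differences in the results for the gluconeogenesis genes was not tested.

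Gluconeogenesis makes glucose from lactate, amino acids and glycerol and lets the liver feed the brain and red blood cells between meals. Pyruvate carboxylase (*Pcx*) and phosphoenolpyruvate carboxykinase (*Pck1*) take pyruvate back to phosphoenolpyruvate, fructose-1,6-bisphosphatase (*Fbp1*) bypasses phosphofructokinase, and glucose-6-phosphatase (*G6pc*) releases glucose in the endoplasmic reticulum, to which *Slc37a4* carries glucose 6-phosphate. Tyrosine aminotransferase (*Tat*) and serine dehydratase (*Sds*) feed in amino acid carbon, and *Ppargc1a* encodes the coactivator PGC-1α. Glucagon, through cAMP, and glucocorticoids raise the transcription of several of these genes, insulin lowers it, and the pathway is known to run mainly in hepatocytes near the portal vein.

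On GRCm38, *Pck1* lies on the plus strand at chr2:173153048-173159273, *G6pc* on the plus strand at chr11:101367561-101377903, *Fbp1* on the minus strand at chr13:62864753-62888282 and *Ppargc1a* on the minus strand at chr5:51454250-51567726. *Pcx* is at chr19:4510472-4621752, *Tat* at chr8:109990437-109999803, *Sds* at chr5:120476526-120483932 and *Slc37a4* at chr9:44396852-44402968, all 4 on the plus strand. Genes that moved in both steps, from L to CS and from CS to PH, numbered 5, and 4 of them had a RefSeq promoter window, which holds 250 bases before and 50 after an annotated start (RefSeq, GRCm38.p6). These windows are shown because the members move together in the data, with the matches to a fixed set of motifs in capitals, both strands searched. All are on the plus strand: *Pck1* at chr2:173152823-173153122, *G6pc* at chr11:101367466-101367765, *Tat* at chr8:109990186-109990485, and the most upstream of 3 windows of *Slc37a4* at chr9:44396696-44396995.
Pck1: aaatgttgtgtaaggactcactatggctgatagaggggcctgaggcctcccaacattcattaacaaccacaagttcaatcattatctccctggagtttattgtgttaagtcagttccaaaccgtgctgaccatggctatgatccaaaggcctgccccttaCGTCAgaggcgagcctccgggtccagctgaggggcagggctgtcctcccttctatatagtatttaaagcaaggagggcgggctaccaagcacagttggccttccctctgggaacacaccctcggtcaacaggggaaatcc
G6pc: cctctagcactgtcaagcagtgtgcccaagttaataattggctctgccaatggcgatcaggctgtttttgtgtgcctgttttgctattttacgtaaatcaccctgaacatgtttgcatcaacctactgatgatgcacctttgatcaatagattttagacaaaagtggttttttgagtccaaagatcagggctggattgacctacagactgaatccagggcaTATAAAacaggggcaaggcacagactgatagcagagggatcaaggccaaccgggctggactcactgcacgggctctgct
Tat: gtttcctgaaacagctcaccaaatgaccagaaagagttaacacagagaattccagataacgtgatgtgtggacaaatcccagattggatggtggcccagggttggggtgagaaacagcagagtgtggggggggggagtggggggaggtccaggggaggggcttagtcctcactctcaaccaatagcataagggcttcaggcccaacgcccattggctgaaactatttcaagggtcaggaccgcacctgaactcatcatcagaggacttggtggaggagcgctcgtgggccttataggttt
Slc37a4: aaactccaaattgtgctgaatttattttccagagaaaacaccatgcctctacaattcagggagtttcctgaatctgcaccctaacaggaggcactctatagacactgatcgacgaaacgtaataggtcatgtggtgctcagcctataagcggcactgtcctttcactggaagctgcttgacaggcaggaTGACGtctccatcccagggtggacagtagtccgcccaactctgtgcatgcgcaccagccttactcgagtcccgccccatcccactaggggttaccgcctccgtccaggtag

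In the *Pck1* window the capitals mark TGACG, the core of the cAMP response element (CRE), read on the minus strand at 90 to 86 bases before the start. The *Slc37a4* window holds the same core on the plus strand 61 to 57 bases before the start, and the *G6pc* window holds TATAAA, the TATA box, 29 to 24 bases before it. The *Tat* window holds none of the motifs searched. Of the members without a printed window, *Ppargc1a* holds the CRE core 49 to 45 bases before its start. The windows of *Fbp1* and *Pcx* hold none of the motifs searched. The unprinted windows of *Slc37a4* hold the CRE core, on both strands, and TATAAA. *Sds* is named only. Among all 32851 windows of the same length, 20.8% hold TGACG, 13.6% TATAAA, 19.0% AGAACA (an arm of the glucocorticoid receptor's site), 10.8% TTGCNNAA (C/EBP), 3.65% TGTTTAC (forkhead factors), 1.79% the full CRE TGACGTCA, within which the core also lies, and 0.475% CAAAGTCCA (Hnf4a). A match is a description of letters in this window and no evidence of binding.

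After 24 hours of culture all 8 genes fell, against both L and CS, and no PH sample reached the lowest L or CS sample for any of them. Over all genes tested, 53.7% were called in PH vs L and 50.4% in PH vs CS. How many of them kept PH apart in this way was not counted. *Pck1*, *Fbp1* and *Sds* fell most from L. *Pcx*, *Slc37a4* and *Ppargc1a* fell least. The values that follow are CPM in hepatocyte nuclei after TMM scaling (a trimmed mean of ratios between samples), with 8 samples per type, and each gene is compared only with itself. Fold changes come from the quasi-likelihood test of edgeR, and adjusted p are Benjamini-Hochberg values over the 26778 genes tested. Each SE was worked back from its test, as the absolute log2 fold change divided by the square root of the F statistic.

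Of the first enzymes of the route, *Pcx* lay between 493 and 823 CPM in L (median 728), between 403 and 1047 in CS (median 692) and between 101 and 193 in PH (median 137). *Pck1* lay between 528 and 2015 CPM in L (median 1341), between 2801 and 4883 in CS (median 3785) and between 20.1 and 44.3 in PH (median 34.1). Even the lowest L sample of *Pck1* was thus above every PH sample, and every CS sample was above every L sample. The mean level of *Pck1* in L was 41.4 times that in PH, and that of *Pcx* 4.75 times. From L to PH, *Pck1* fell by 5.37 on the log2 scale (SE 0.25, adjusted p = 9.47e-18) and *Pcx* fell by 2.25 (SE 0.19, adjusted p = 7.04e-12).

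Further along the route, *Fbp1* was at 487 to 1000.2 CPM in L (median 783), at 555 to 1195 in CS (median 941) and at 16.01 to 28.5 in PH (median 18.9). For *G6pc* the range was 343 to 2062 CPM in L (median 1106), 2675 to 4888 in CS (median 3246) and 36.8 to 69.7 in PH (median 52.5). L and CS overlapped for *Fbp1* and did not for *G6pc*. *Fbp1* fell by 5.21 from L to PH (SE 0.20, adjusted p = 1.11e-19) and *G6pc* fell by 4.45 (SE 0.26, adjusted p = 1.91e-15). *Slc37a4*, the transporter that serves *G6pc*, was lower in PH as well, at 7.18 to 14.9 CPM (median 11.03) against 33.3 to 81.8 in L (median 45.1) and 41.0 to 122 in CS (median 72.5). Its fall from L was 2.23 on the log2 scale (SE 0.21, adjusted p = 1.61e-10).

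Both amino acid enzymes followed. *Tat* was at 233 to 1899 CPM in L (median 1188), at 769 to 3456 in CS (median 2294) and at 29.2 to 93.9 in PH (median 56.6). *Sds* was at 81.3 to 397 CPM in L (median 226), at 145 to 697 in CS (median 428) and at 3.75 to 10.8 in PH (median 7.33). In both genes L and CS overlapped and PH stood apart below them. *Tat* fell by 4.31 from L to PH (SE 0.37, adjusted p = 2.21e-11) and *Sds* fell by 5.00 (SE 0.34, adjusted p = 8.66e-14). The coactivator gene *Ppargc1a* ran from 81.8 to 149.6 CPM in L (median 99.8), from 76.0 to 142 in CS (median 116) and from 10.7 to 32.2 in PH (median 18.2), a fall of 2.51 on the log2 scale from L to PH (SE 0.20, adjusted p = 4.43e-12).

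**Figure D1:**
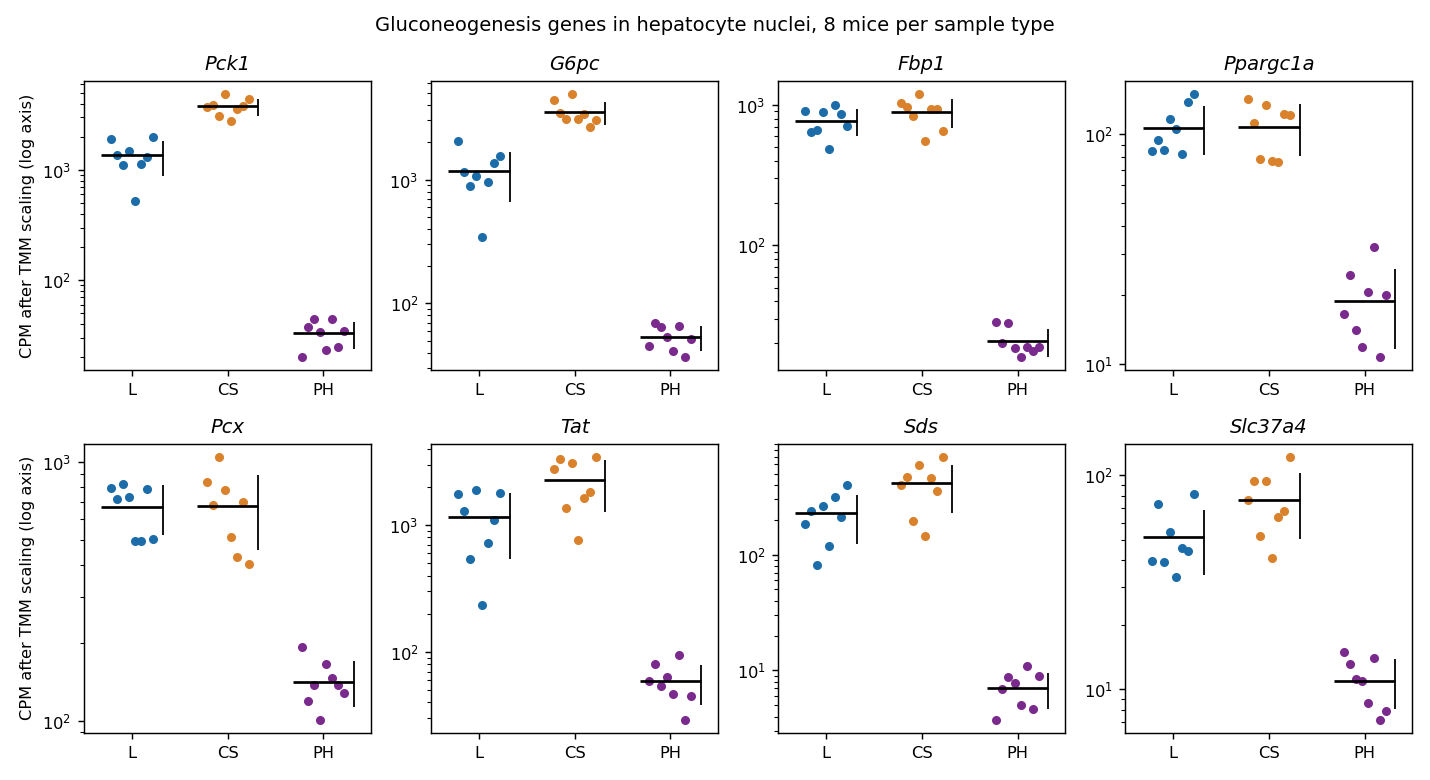
TMM-scaled CPM (log axis) of each gluconeogenesis gene in hepatocyte nuclei of L, CS and PH. Points are the 8 mice of a sample type, horizontal lines the mean and the vertical line beside it 1 SD on each side. For each gene all 8 PH points lie below all L and CS points, and CS lies wholly above L for *Pck1* and *G6pc*. The share of all genes that separate so was not counted.

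All 8 genes were called lower in PH than in L, where 26.3% of all genes tested were lower and 27.4% higher. They were likewise all called lower in PH than in CS, where 23.5% of all genes were lower and 26.9% higher. The median log2 fold change of the 8 genes was -4.38 against L and -5.35 against CS, beside 0.10 and 0.02 over all genes. From CS to PH the log2 fold change was -6.85 for *Pck1*, -6.02 for *G6pc*, -5.87 for *Sds*, -5.42 for *Fbp1*, -5.28 for *Tat*, -2.80 for *Slc37a4*, -2.52 for *Ppargc1a* and -2.26 for *Pcx*, with adjusted p between 7.63e-20 and 8.17e-12. Both comparisons share the PH samples. Each gene was lower in PH in 8 of 8 mice, in both of the pools that held L and PH, and in all 4 pools that held CS and PH.

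Between L and CS, which differ by collagenase digestion, straining and washes in medium with serum, 5 of the 8 genes rose and none fell. These steps cannot be told apart. Over all genes 8.15% were higher and 14.2% lower in this comparison (2183 of 5983 called genes were higher, and 2800 of 5862 with the RLE size factors of DESeq2, where the same 5 members were called). *G6pc* rose by 1.58 on the log2 scale (SE 0.23, adjusted p = 4.21e-06) and *Pck1* by 1.47 (SE 0.21, adjusted p = 2.95e-06). For these 2 genes the ranges of L and CS did not overlap, and CS exceeded L in all 4 pools that held both. The share of all genes without such overlap was not counted. Within a mouse, CS was 1.94 to 9.01 times L for *G6pc* and 1.96 to 5.30 times for *Pck1*.

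*Tat* rose by 0.97 (SE 0.33, adjusted p = 0.0318), *Sds* by 0.87 (SE 0.29, adjusted p = 0.0267) and *Slc37a4* by 0.58 (SE 0.20, adjusted p = 0.0384). Each was higher in CS in 8 of 8 mice, with overlapping ranges between the sample types. Within pools, whose samples come mostly from different mice, the CS mean was above the L mean in 4 of 4 pools for all 3 genes. Every CS sample was above every L sample in 2 of 4 pools for *Tat* and *Sds* and in 1 of 4 for *Slc37a4*. All 3 calls were lost without certain mice. The adjusted p of *Tat* was 0.0822 without mouse 2, 0.0531 without mouse 3, 0.0547 without mouse 6 and 0.0525 without mouse 8. That of *Sds* was 0.0556, 0.0615 and 0.0695 without mouse 1, 2 and 4. That of *Slc37a4* was 0.0902, 0.0513, 0.0909, 0.0616 and 0.0683 without mouse 1, 3, 4, 6 and 7. With the mouse as a block, which uses the shared origin of L and CS, the adjusted p was 0.00221 for *Tat*, 0.00107 for *Sds* and 0.00789 for *Slc37a4*. With the pool as a covariate it was 0.143 for *Tat* and 0.120 for *Slc37a4*.

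The other 3 genes did not pass the test between L and CS. *Fbp1* differed by 0.21 on the log2 scale (SE 0.16, adjusted p = 0.402) and was higher in CS in 6 of 8 mice. *Pcx* differed by 0.01 (SE 0.18, adjusted p = 0.978), higher in CS in 4 mice, and *Ppargc1a* by 0.01 (SE 0.19, adjusted p = 0.979), higher in CS in 3. The order of the sample types was thus CS, L, PH for *Pck1*, *G6pc*, *Tat*, *Sds* and *Slc37a4*, whereas for *Fbp1*, *Pcx* and *Ppargc1a* L and CS were neighbours that did not differ beyond their spread.

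The order of the mice was partly shared between L and CS. The 3 mice with the lowest *Pck1* were mice 3, 5 and 6 in L and the same mice in CS, and for *Tat* they were again mice 3, 5 and 6 in both. For *Pcx* they were mice 5, 6 and 8 in both. For *Fbp1*, *Ppargc1a*, *Sds* and *Slc37a4* only 2 of the 3 lowest mice were shared, and for *G6pc* only 1, with mice 3, 5 and 6 lowest in L and mice 3, 7 and 8 in CS. Between L and PH only 1 of the 3 lowest mice was shared for each gene but *Sds*, where 2 were. The lowest in PH were mice 1, 5 and 7 for *Pck1* and *G6pc*, and mice 5, 7 and 8 for *Tat*. How many mice would be shared at random was not computed for any of these pairs. Mouse 5 was the only one of the 3 lowest for *Pck1* in all 3 sample types.

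The hepatocyte levels were set beside those in endothelial nuclei of the same samples, a cell type not known for glucose production (2474 in L, 1152 in CS and 1809 in PH). Levels set between cell types here are CPM without TMM scaling. In L the mean endothelial level was between 14.3% (*Pcx*) and 24.0% (*Sds*) of the hepatocyte level, and in CS between 13.8% (*G6pc*) and 28.8% (*Slc37a4*). In PH the 2 cell types came together: the endothelial level was 221% of the hepatocyte level for *Pck1*, 173% for *Sds*, 168% for *G6pc*, 133% for *Fbp1*, 108% for *Tat*, 82.4% for *Slc37a4*, 73.9% for *Ppargc1a* and 40.5% for *Pcx*. Mean *Pck1* in PH was 44.2 ± 13.0 CPM in hepatocyte nuclei and 97.7 ± 47.5 CPM in endothelial nuclei (SD, n = 8 each), and no mouse had more in hepatocytes. *Pcx* was the only gene with more in hepatocyte nuclei in 8 of 8 PH samples, at 187 ± 29.6 against 75.7 ± 32.6 CPM. The hepatocyte markers also came closer between the cell types. Their median summed level in endothelial nuclei was 3217 CPM in L and 3766 in PH, against 15818 and 7616 in hepatocyte nuclei. The part of this in the levels above was not tested.

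In tests with the sample as a block, all 8 genes were higher in hepatocyte than in endothelial nuclei in L (26.6% of all genes were) and all 8 in CS (20.1% of all genes). In PH, 2 were higher (20.8% of all genes), *Pcx* by 1.53 on the log2 scale (SE 0.18, adjusted p = 1.50e-12) and *Ppargc1a* by 0.65 (SE 0.24, adjusted p = 0.0246). Another 2 were lower in the hepatocyte nuclei of PH (11.1% of all genes), *Pck1* by 0.89 (SE 0.18, adjusted p = 2.25e-05) and *G6pc* by 0.58 (SE 0.17, adjusted p = 0.00337). The call of *Ppargc1a* was lost without TMM scaling (adjusted p = 0.139) and under filterByExpr, which tests fewer genes (adjusted p = 0.104). That of *G6pc* was lost among nuclei of at least 1000 UMIs (adjusted p = 0.0910). *Fbp1*, *Tat*, *Sds* and *Slc37a4* did not pass the test in PH, with adjusted p from 0.0793 to 0.964. *Sds* was called lower without TMM scaling (log2 difference -0.79, adjusted p = 0.0389) and under filterByExpr (-0.77, adjusted p = 0.0378).

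**Figure D2:**
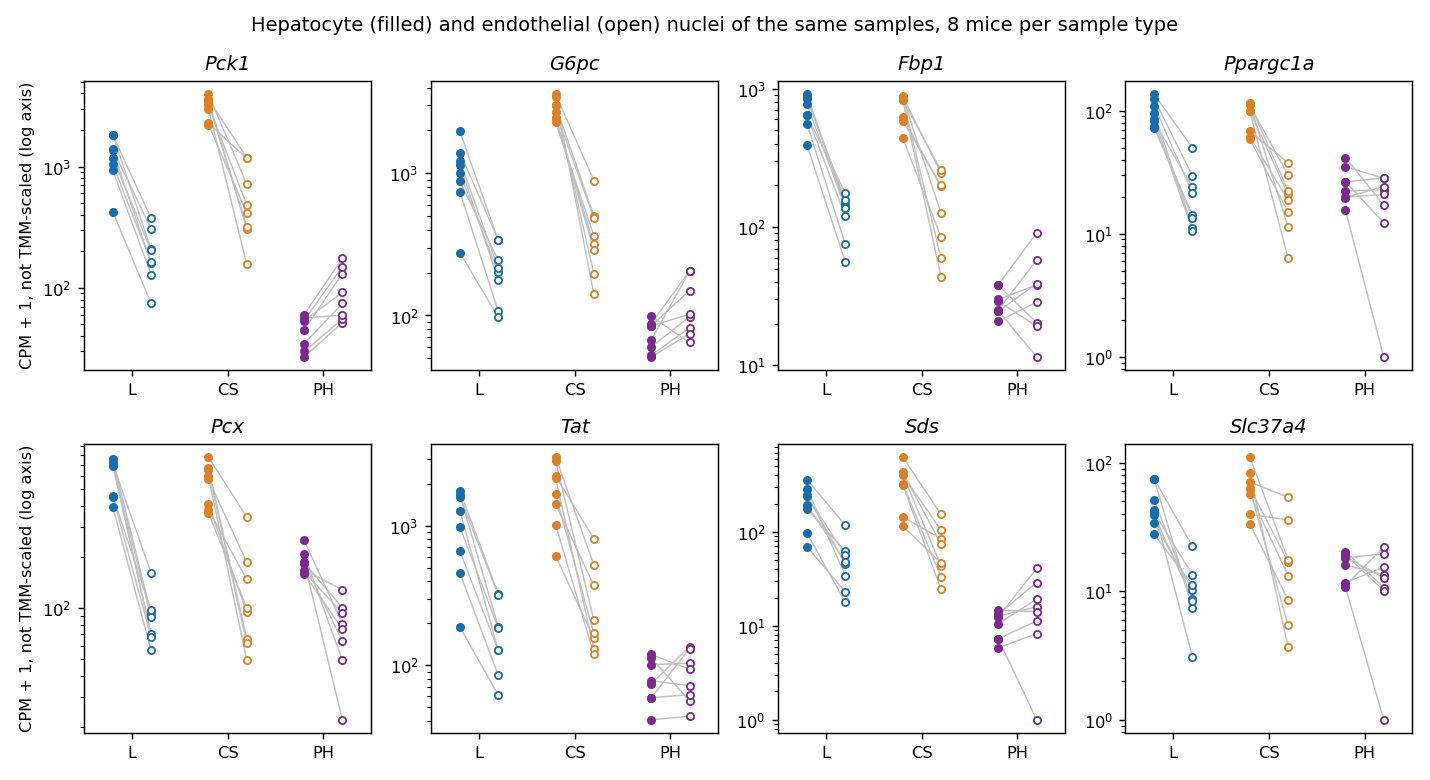
CPM + 1 without TMM scaling (log axis) of each gene in hepatocyte nuclei (filled points) and endothelial nuclei (open points), with a line joining the 2 values of a sample. In L and CS every line falls from hepatocyte to endothelial nuclei, whereas in PH the 8 *Pck1* lines rise and the 8 *Pcx* lines fall.

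From L to PH, 5 of the 8 genes were lower in the endothelial nuclei as well, where 18.4% of all genes tested were: *Fbp1* by 1.73, *Sds* by 1.66, *Pck1* by 1.22, *Tat* by 1.09 and *G6pc* by 0.90 on the log2 scale. *Pcx* (-0.36), *Ppargc1a* (-0.29) and *Slc37a4* (0.27) did not pass the test. From CS to PH 6 were lower (10.7% of all genes), *Pcx* in addition, and from L to CS 2 were higher (2.03% of all genes), *Pck1* by 1.53 and *G6pc* by 0.87. The call of *G6pc* from L to PH was lost under filterByExpr (adjusted p = 0.0623), as was that of *Pcx* from CS to PH (adjusted p = 0.0745). These endothelial sums hold few UMIs of the members, in PH from 46 of *Slc37a4* to 413 of *G6pc* over 8 samples. Other cells' markers moved with these nuclei: the summed Kupffer markers in them had a median of 1397 CPM in L, 1365 in CS and 209 in PH, and the summed hepatocyte markers 3217, 4302 and 3766 CPM, whose part in these results was not tested. The difference between both cell types in the change from L to PH was itself past the threshold for all 8 genes, with the hepatocyte change the more negative (11.6% of all genes were), from -4.01 for *Pck1* (SE 0.24, adjusted p = 1.30e-28) to -1.76 for *Pcx* (SE 0.24, adjusted p = 1.10e-09).

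Barcodes outside the authors' table of nuclei were used as an estimate of the free RNA of a pool. They can also hold doublets, nuclei without a clear hashtag and nuclei of few UMIs, whose part was not tested. A peak of them lay between 150 and 600 UMIs (376554 barcodes, a range chosen after seeing the data). They held *Pck1* at 225 to 839 CPM over the 6 pools, *G6pc* at 413 to 1546 and *Ppargc1a* at 31.2 to 82.2. In pools with PH the *Pck1* level of these barcodes, 225 to 604 CPM, was above the hepatocyte level of every PH sample. If these barcodes held free RNA alone and each nucleus carried as many UMIs of it, free RNA would amount to 44.0% of the PH hepatocyte UMIs of *Pck1*, 43.5% of those of *Sds*, 40.0% of *G6pc*, 32.7% of *Fbp1* and 24.3% of *Tat*. For *Ppargc1a* it would be 7.90%, for *Slc37a4* 6.48% and for *Pcx* 5.85%. In L and CS the same estimate was between 1.11% and 3.87% for every one of the genes. In PH endothelial nuclei it was 89.7% for *Sds*, 88.8% for *G6pc*, 88.0% for *Fbp1*, 81.4% for *Tat*, 75.8% for *Pck1*, 67.1% for *Pcx*, 48.1% for *Ppargc1a* and 28.7% for *Slc37a4*. These are pooled values that differed widely between samples, in PH hepatocyte nuclei from 21.8% to 59.2% for *Pck1* and from 13.7% to 61.3% for *Fbp1*. In PH endothelial nuclei they reached 104% for *G6pc*, 134% for *Fbp1* and 196% for *Sds*, more than the UMIs observed. In the range first set, 10 to 100 UMIs (61849 barcodes), which lies below that peak, *Pck1* was at 548 to 1280.3 CPM and *G6pc* at 699 to 1492. These barcodes hold few UMIs each, and the same estimate from them was much lower. In PH hepatocyte nuclei it was 4.92% for *Pck1*, 3.60% for *Sds*, 3.17% for *Fbp1*, 2.89% for *G6pc*, 1.92% for *Tat* and under 1% for the other genes, and in PH endothelial nuclei it lay between 1.92% (*Slc37a4*) and 6.60% (*Pck1*). The estimated share of free RNA therefore rests on the range of barcodes taken. By the estimate from either range free RNA weighs more in the endothelial nuclei, which hold fewer UMIs. Its part in the order of the 2 cell types in PH was not tested. No lack of a transcript in hepatocytes is read from a hepatocyte level at or under the endothelial one.

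Shares of nuclei with at least 1 UMI of a gene were compared at 1 depth. With each nucleus thinned to 1000 UMIs, the median share over samples of hepatocyte nuclei with *Pck1* was 66.9% in L, 91.9% in CS and 4.51% in PH, and in PH endothelial nuclei it was 7.36%. For *G6pc* the shares were 55.9%, 86.5% and 6.36%, against 9.11% in PH endothelial nuclei. *Pcx* was seen in 45.0%, 40.7% and 14.1% of hepatocyte nuclei, above the 5.47% of PH endothelial nuclei, and *Ppargc1a* in 8.07%, 7.97% and 2.502%, against 1.81%. *Sds* was seen in 17.2%, 24.2% and 1.19%, against 1.30%, and *Slc37a4* in 4.26%, 5.54% and 1.58%, against 1.07%. The shares of *Tat* (6.69%) and *Fbp1* (2.77%) in PH hepatocyte nuclei were under the endothelial ones (7.83% and 3.15%) at this depth. Without thinning, the shares in L, CS and PH hepatocyte nuclei and in PH endothelial nuclei were 91.6%, 95.3%, 17.3% and 18.2% for *Pck1*, 86.2%, 92.8%, 24.8% and 19.6% for *G6pc*, 84.5%, 66.7%, 47.5% and 11.3% for *Pcx*, 42.4%, 25.2%, 11.4% and 3.54% for *Ppargc1a*, 89.5%, 90.3%, 25.8% and 13.5% for *Tat*, 86.2%, 71.8%, 11.8% and 5.61% for *Fbp1*, 41.0%, 41.5%, 5.39% and 2.28% for *Sds*, and 29.6%, 23.5%, 9.11% and 2.12% for *Slc37a4*. The order of the shares depended on thinning, and none is read from them where it goes against the CPM. Median UMIs before thinning were 7573 in L, 3459 in CS and 6080 in PH hepatocyte nuclei, and 1377 in PH endothelial nuclei. Nuclei under 1000 UMIs were left out, so that 14579 of 15166, 12407 of 13339 and 15990 of 16283 hepatocyte nuclei and 1328 of 1809 PH endothelial nuclei remained.

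In the other cell types of L the genes were likewise low. *Pck1* had a median of 155 CPM in stellate nuclei, 228 in Kupffer nuclei, 372 in leukocyte nuclei and 87.1 in biliary nuclei, beside 183 in endothelial and 1272 in hepatocyte nuclei. *G6pc* followed with 214, 250.2, 373 and 118 CPM in the first 4 of these types, against 1071 in hepatocyte nuclei. *Ppargc1a* was the exception in its order, with 68.1 CPM in biliary nuclei (45 UMIs in 220 nuclei) beside 89.3 in hepatocyte nuclei and 15.3 to 30.9 in the remaining types. These levels rest on few nuclei and are given without a test.

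A second reading came from the splicing state of the UMIs. Unspliced molecules still hold intron sequence, so that in nuclei they are close to the products of recent transcription. In L, 51.03% of *Pck1* UMIs were unspliced, against 46.5% in CS and 26.9% in PH. No other gene of the set lost as many percentage points between L and PH. *G6pc* went from 82.2% in L to 70.4% in CS and 66.3% in PH, *Fbp1* from 88.1% to 86.1% and 75.2%, and *Tat* from 71.5% to 52.1% and 51.5%. *Slc37a4* was 59.6%, 47.0% and 41.7% unspliced and *Pcx* 96.7%, 93.6% and 90.5%. *Ppargc1a* was 90.2%, 89.0% and 84.4% unspliced and *Sds* 89.8%, 85.7% and 87.3%. Over all genes the shares were 74.5%, 66.7% and 64.3%.

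**Figure D3:**
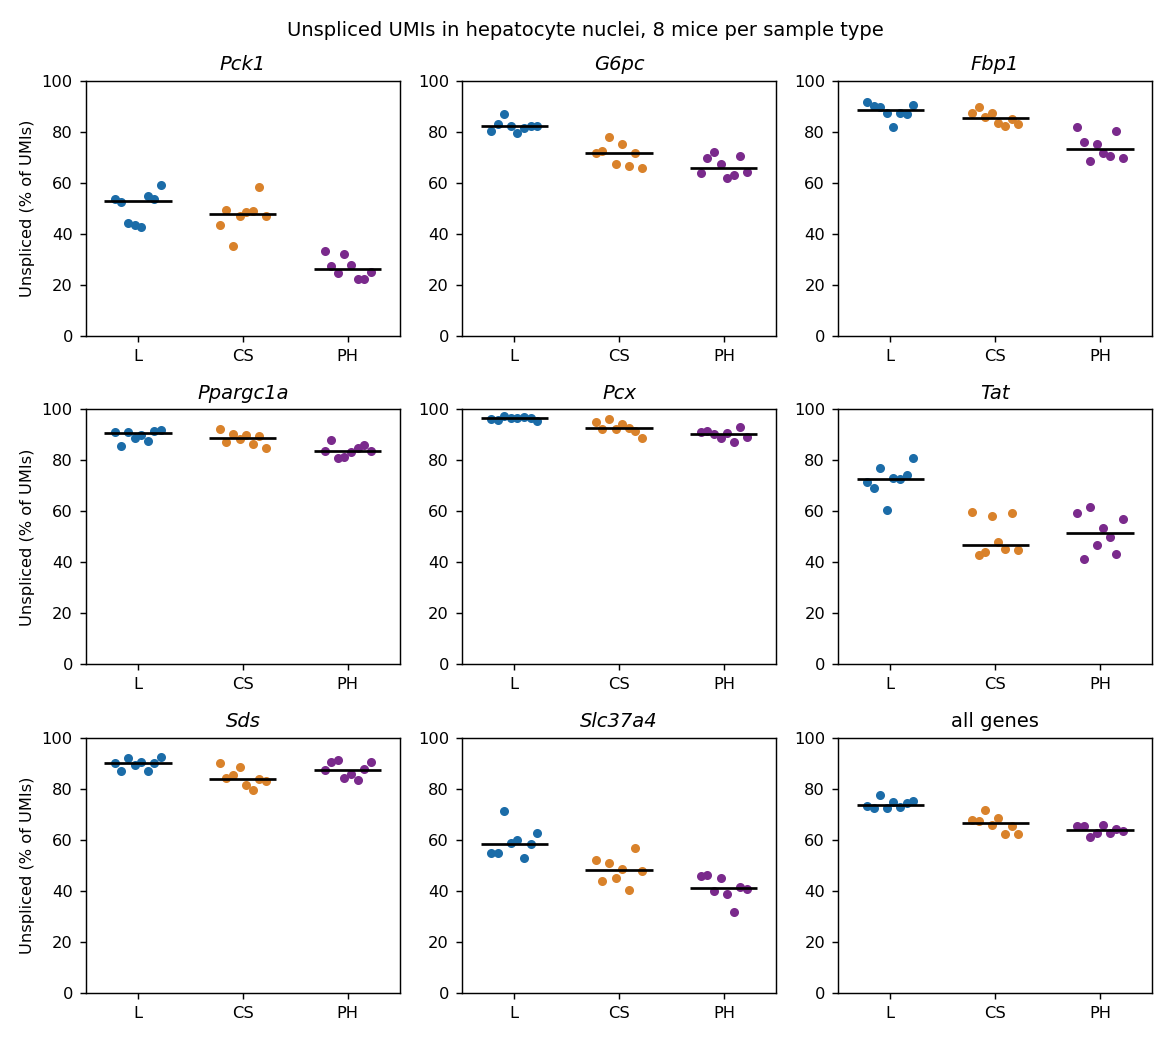
Unspliced UMIs as a percentage of all UMIs of each gene in hepatocyte nuclei, per mouse, with the median as a line; the last panel is over all genes. The *Pck1* values of PH (22.3% to 33.4%) lie wholly below those of L (42.7% to 59.1%), and *Tat* lies at 60.4% or more in L and at 59.7% or less in CS.

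Set against other genes, with the spliced and unspliced sums scaled separately, 6 of the 8 genes shifted toward spliced UMIs from L to PH (14.7% of all genes did). *Pck1* shifted by 1.32 on the log2 scale (SE 0.16, adjusted p = 1.83e-12), *Pcx* by 1.21, *Fbp1* by 1.07, *Tat* by 0.99, *G6pc* by 0.85 and *Slc37a4* by 0.64. The shift of *Ppargc1a* was 0.31 (adjusted p = 0.174) and that of *Sds* 0.13 (adjusted p = 0.874). From CS to PH 6 genes shifted the same way (8.33% of all genes), *Pck1* by 1.504, *Fbp1* by 1.25, *Ppargc1a* by 0.79, *Pcx* by 0.67, *Slc37a4* by 0.48 and *G6pc* by 0.47. With library totals in place of TMM the calls of *Slc37a4* and *G6pc* from CS to PH were lost (adjusted p = 0.508 and 0.407). So was that of *Slc37a4* from L to PH (adjusted p = 0.228). From L to CS, *Tat* (0.89, adjusted p = 2.36e-06) and *Pcx* (0.54, adjusted p = 0.00701) shifted toward spliced (9.25% of all genes), and *Ppargc1a* shifted toward unspliced (-0.48, adjusted p = 0.0172; 4.49% of all genes). The call of *Ppargc1a* was lost with ambiguous UMIs added to the spliced ones (-0.26, adjusted p = 0.237). Free RNA of the pools can enter the PH values, and its part in these shifts was not tested. Where the unspliced UMIs were tested alone, *Pck1*, *G6pc* and *Sds* were called higher in CS than in L and *Tat* and *Slc37a4* were not (adjusted p = 0.170 and 0.133).

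Position in the lobule was read from the nuclei themselves. Hepatocyte nuclei of at least 1000 UMIs were ranked within each sample by 10 periportal genes minus 10 pericentral genes, none of them a member of the set, cut into 3 groups of like size, and the upper (portal) and lower (central) groups were summed (4861 and 4875 nuclei in L, 4136 and 4162 in CS). Between 12.9% and 17.9% of nuclei lay close to a cut. The scoring gene *Glul* had a median of 463 CPM in the central and 12.9 in the portal nuclei of L, and 646 against 74.4 in CS, so that the central gene was less sharply separated in CS. *Hal*, a portal scoring gene, had a median of 1332 CPM in the portal and 22.3 in the central nuclei of L, and 1424 against 36.5 in CS. PH was not divided.

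In L 7 of the 8 genes were higher in the portal nuclei (8.54% of all genes were). *Sds* stood apart from the rest, at 196 to 790.5 CPM in the portal nuclei and 2.99 to 19.7 in the central nuclei, a difference of 5.66 on the log2 scale (SE 0.18, adjusted p = 1.17e-34). *Ppargc1a* was higher by 1.61 (SE 0.09), *Fbp1* by 1.17 (SE 0.08), *Pck1* by 1.16 (SE 0.10), *Tat* by 0.66 (SE 0.08), *G6pc* by 0.58 (SE 0.08) and *Slc37a4* by 0.51 (SE 0.08). Each of these 7 was higher in the portal nuclei in 8 of 8 mice. *Pcx* differed by 0.02 (SE 0.06, adjusted p = 0.942), with 5 of 8 mice higher in the portal nuclei.

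In CS 7 genes were again higher in the portal nuclei (9.65% of all genes). *Sds* (5.68), *Ppargc1a* (1.75) and *Fbp1* (1.16) had log2 differences close to those of L. For *Pck1* the difference was 0.42 (SE 0.10, adjusted p = 0.00131), for *Slc37a4* 0.41, for *Tat* 0.30 and for *Pcx* 0.22. *G6pc* did not pass the test (0.07, SE 0.08, adjusted p = 0.680). The portal median of *Pck1* went from 1757 CPM in L to 3549 in CS and the central median from 757 to 2830. The central group as cut thus lay closer to the portal group in CS. Its upper limit, periportal minus pericentral, was above 0 in CS of mouse 3 (0.0616) and mouse 7 (0.285). In the other samples it was at or under 0. The part of this was not tested. *G6pc* went from 1407 to 2868 CPM in the portal and from 794 to 2822 in the central nuclei.

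The difference between CS and L in this contrast, a test added after seeing the data, was past the threshold for *Pck1* (-0.74, SE 0.15, adjusted p = 0.00160) and *G6pc* (-0.51, SE 0.11, adjusted p = 0.00672), both lower, where 1.09% of all genes were lower. For *Tat* it was -0.36 (adjusted p = 0.0804, and 0.0398 with library totals in place of TMM). For *Fbp1*, *Ppargc1a*, *Pcx*, *Sds* and *Slc37a4* it was between -0.10 and 0.20, with adjusted p of 0.304 or more. The blunter separation of *Glul* in CS moved with this result, and its part was not tested.

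**Figure D4:**
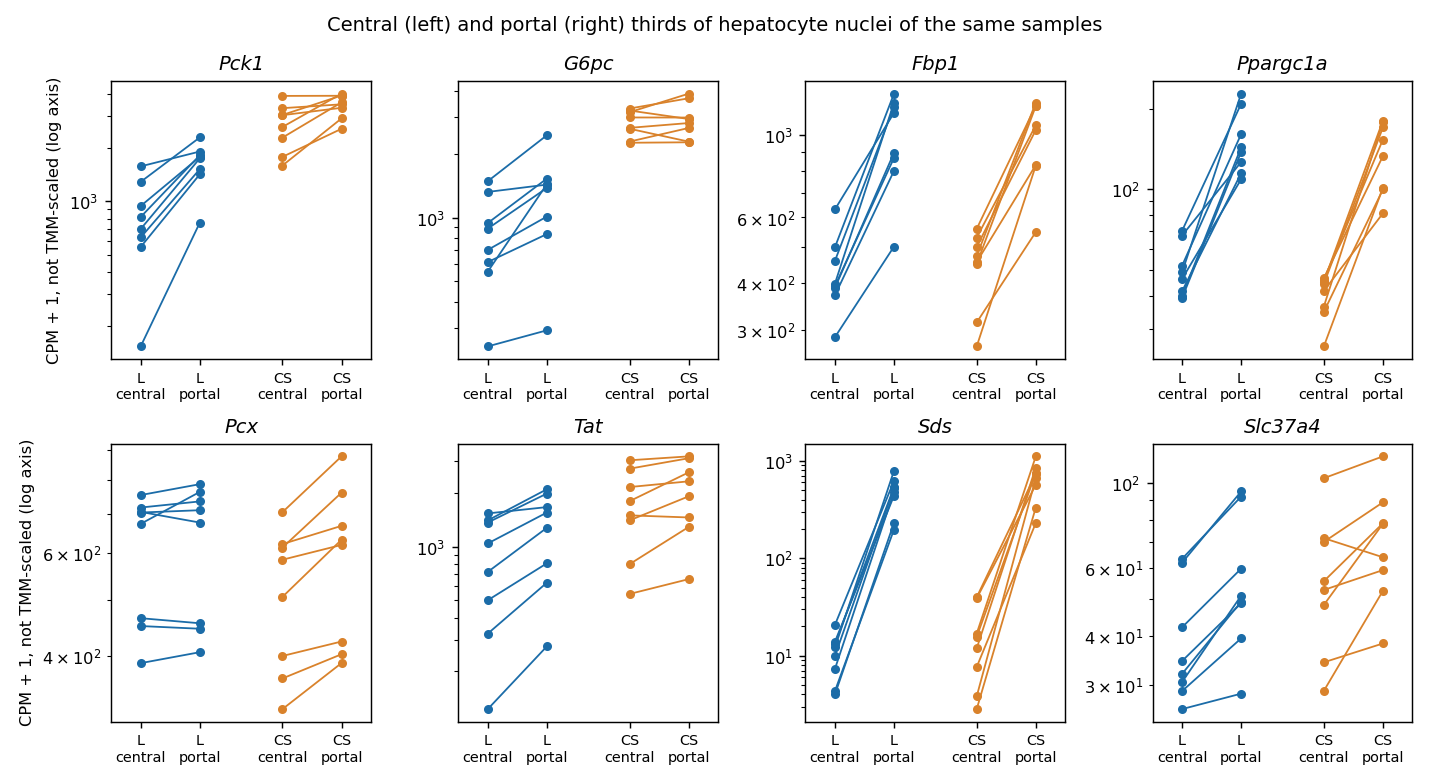
CPM + 1 without TMM scaling (log axis) of each gene in the central and portal nucleis of hepatocyte nuclei of L (blue) and CS (orange), with a line for each mouse. The lines of *Sds* rise steeply in both sample types, and those of *Pck1* and *G6pc* rise in all 8 mice of L and are flatter in CS.

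Cultured hepatocyte nuclei were not uniform. The authors' clusters of PH hepatocyte nuclei differ in the members, and since the clusters were made from these same counts the values are a description without a test. Cluster 17, with 1271 nuclei (7.81% of PH hepatocyte nuclei), had 93.0 ± 53.1 CPM of *Ppargc1a* (SD, n = 8 samples) and held 25.3% of its UMIs in PH, against 18.8 ± 4.99 CPM in cluster 0 and 18.9 ± 4.49 in cluster 1, the largest clusters. In 8 of 8 samples it was above clusters 0, 1 and 14 in *Ppargc1a*, *Pck1* and *Sds*, and above cluster 8 as well in 6, 6 and 5 of 8. *Pck1* was at 79.1 ± 39.7 CPM in cluster 17 and between 27.7 and 31.6 in clusters 0, 1 and 14, *Tat* at 145 ± 65.6 against 47.4 to 76.2, and *Sds* at 25.0 ± 12.9 against 5.70 to 9.09. *Pcx* went the other way, with 79.6 ± 21.0 CPM in cluster 17, the lowest of the clusters in 8 of 8 samples, and 243 ± 43.3 in cluster 0, the highest in 8 of 8. *G6pc* (61.3 ± 29.2) and *Fbp1* (22.1 ± 10.1) in cluster 17 were within the range of the others. Even in cluster 17 the *Pck1* level was far under the 423 CPM of the lowest L sample. Without cluster 17 the PH mean of *Ppargc1a* was 19.6 ± 4.04 CPM, against 24.9 ± 8.68 with it. Median UMIs per PH nucleus were 4871 in cluster 17, 7372 in cluster 0 and 6037 in cluster 1. Cluster 8, of few UMIs per nucleus (1450 of its 2321 nuclei from PH), had 61.8 ± 22.6 CPM of *Pck1* and 104 ± 52.5 of *G6pc*. Its *Tat* (102 ± 40.4 CPM), *Ppargc1a* (31.9 ± 11.2) and *Sds* (17.8 ± 12.3) lay between cluster 17 and clusters 0, 1 and 14.

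**Figure D5:**
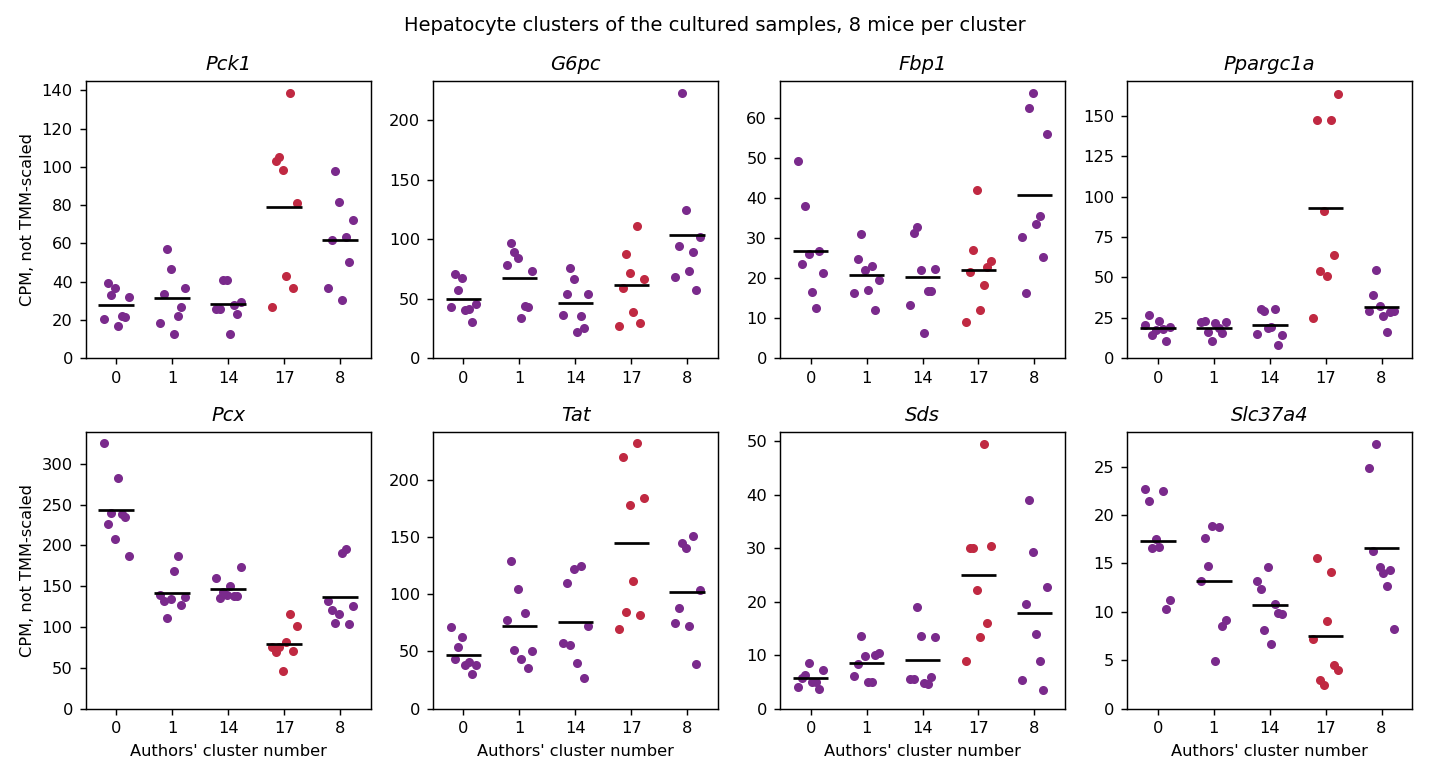
CPM without TMM scaling of each gene in the PH nuclei of the authors' hepatocyte clusters 0, 1, 14, 17 (red) and 8, with the mean of 8 samples as a line. *Ppargc1a*, *Pck1*, *Tat* and *Sds* have their highest mean in cluster 17, where *Pcx* and *Slc37a4* have their lowest.

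A smaller split was present in CS, where 532 nuclei carried the authors' name for hepatocytes of tissue and 12057 the name for isolated hepatocytes. The remaining CS hepatocyte nuclei lay in cultured clusters. Median UMIs per nucleus were 2272.5 in the 532 nuclei and 3674 in the 12057, and the smaller group held as few as 20 nuclei in a sample. The part of depth was not tested. *Pck1* was at 1689 ± 540 CPM in the former and at 3260 ± 609 in the latter, and *G6pc* at 1994 ± 449 against 2952 ± 484 (SD, n = 8). *Pcx* was at 560 ± 203 and 557 ± 154. The names follow clusters of the same counts, so that no test is given.

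Other genes of glucose metabolism were taken from lists that cover the rest of the pathway. Of 7 enzymes of the reversible steps shared with glycolysis, 5 were higher and 1 lower in PH than in L, beside the 27.4% higher and 26.3% lower over all genes. Of 19 genes that bring in lactate, amino acid, mitochondrial or glycerol carbon, 13 were lower and 3 higher in PH. *Aqp9*, the glycerol channel, fell by 3.82, *Slc25a10*, the mitochondrial dicarboxylate carrier, by 3.57, *Mdh1*, cytosolic malate dehydrogenase, by 2.82, the aminotransferase genes *Got1* and *Gpt* by 2.22 and 2.13, and *Gpd1*, glycerol-3-phosphate dehydrogenase, by 2.09. Of 5 genes of glucose release and glucose 1-phosphate, *Slc2a2*, the hepatocyte glucose transporter, fell by 4.77 (SE 0.22, adjusted p = 1.75e-17), *Pgm2*, a sugar phosphate mutase, rose by 3.38 and the other 3 did not pass the test.

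Among 26 regulators, 16 were lower and none higher in PH than in L, where over all genes 26.3% were lower and 27.4% higher. *Gcgr*, the glucagon receptor, fell by 3.66 (SE 0.15, adjusted p = 8.81e-19), from 161 to 243 CPM in L to 10.6 to 23.3 in PH. *Nr0b2*, which encodes the repressor SHP, fell by 5.05, *Ppara* and *Klf15*, a fatty acid receptor and a factor induced by glucocorticoids and fasting, each by 3.39, and *Cebpa*, a C/EBP factor of mature hepatocytes, by 2.17. Of 12 genes of glucose use, 5 were higher and 6 lower. *Pkm*, the pyruvate kinase of proliferating cells, rose by 7.11 (SE 0.45, adjusted p = 1.74e-14), from 0.498 to 5.07 CPM in L to 171 to 281 in PH, while *Pklr*, the liver pyruvate kinase, fell by 3.36. *Pfkl*, a phosphofructokinase, rose by 2.85. *Gckr*, the regulator of glucokinase, fell by 3.10, *Pfkfb1*, which sets fructose 2,6-bisphosphate, by 3.08 and *Srebf1*, a lipogenic factor, by 2.03.

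From L to CS, where 8.15% of all genes were higher and 14.2% lower, the higher genes numbered 4 of 7 reversible enzymes, 8 of 19 entry genes, 2 of 5 release genes, 10 of 26 regulators and 4 of 12 genes of glucose use. Only the regulators held lower genes, 3 in number: *Creb1*, *Prkaca* and *Irs1*, which were named after their values were seen because they are few. The early response gene *Nr4a1* rose by 3.88 (SE 0.36, adjusted p = 1.49e-09), from 1.70 to 17.3 CPM in L to 53.2 to 172 in CS. *Pkm* rose by 2.67, *Cebpb*, a C/EBP factor of acute responses, by 2.41, *Igfbp1*, a gene repressed by insulin, by 2.38, and *Irs2*, an insulin receptor substrate that is also repressed by insulin, by 2.12. In PH, *Irs2* (47.6 to 73.8 CPM, against 43.2 to 76.4 in L) and *Nr4a1* (4.99 to 11.6 CPM) lay within their L ranges. *Cebpb* (15.96 to 43.6 CPM, against 9.90 to 32.02 in L) and *Igfbp1* (38.5 to 196 CPM, against 21.2 to 154 in L) reached above theirs, and *Pkm* lay wholly above.

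Genes with the pattern most like that of a member were sought over the 24 hepatocyte sums among 8616 genes, as the Pearson correlation of log2(CPM + 1), a description that the contrast of PH with the rest dominates. *Pck1* and *G6pc* were each among the 2 genes nearest to the other (0.994). Nearest to *Fbp1* were *Mettl7b* (0.996) and *Mgll* (0.995), to *Ppargc1a* *N4bp2* (0.971) and *Hgd* (0.970), and to *Pcx* *Kif13b* and *Rora* (both 0.986). *Tat* was nearest to *Abcg5* (0.984) and *Etnk2* (0.982), *Sds* to *Khk* and *Etnk2* (both 0.989), and *Slc37a4* to *Khk* and *Sec14l4* (both 0.978). No other 2 members were in each other's nearest pair.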

How the data were processed

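The members and gene lists were chosen with earlier results of these data known. The authors demultiplexed base calls with bcl2fastq 2.19.0, quantified reads against GRCm38 with Salmon Alevin and Alevin-fry, assigned hashtags with mclust, removed doublets with scDblFinder and clustered with Seurat. The deposited matrices hold raw UMI counts per barcode and gene, split into spliced, unspliced and ambiguous counts. The authors' table of nuclei gives the sample, cluster and cell type; all of its nuclei were kept. Cultured clusters were assigned to hepatocyte, endothelial or stellate nuclei by marker lists. The hashtag label CD2 was read as CS of mouse 2. The hashtag matrices were not used.

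The 3 states were added and summed per sample and cell type. The quasi-likelihood test of edgeR 4.0.16 (R 4.3.3; TMM, 1 coefficient per sample type) was run on genes reaching 10 counts in total, Benjamini-Hochberg adjusted, threshold 0.05. The tests were tried on simulated counts. DESeq2 1.42.0 (with limma 3.58.1 loaded by edgeR), RLE factors, other filters, the mouse as a replicate block, the pool as a covariate, splicing states alone, thinning and leaving out each mouse were alternatives. Samples of 1 mouse number come from 1 animal. Over 3838 genes their deviations from the group means correlated between L and CS (0.427 to 0.903, median 0.757; -0.111 between different mice), and less between L and PH (median 0.0554) or CS and PH (median 0.0238). Named genes beyond the members are list genes called in CS vs L or PH vs L with an absolute log2 fold change of at least 2 and at least 20 CPM in a sample type, and the 2 most correlated genes of each member among those of at least 10 mean CPM; the values of 1 gene that this rule names are not reported here. Thinned shares are expected values for 1000 UMIs per nucleus. Promoters and motifs were read from RefSeq windows, and 7 of 8 members had one. The rest used Python 3.11.15 (matplotlib 3.10.9, pandas 2.3.3, scipy 1.17.1, numpy 2.4.6). P-values of the main fits measure the spread between the mice of a sample type, without the pairing of samples by mouse. Fits between cell types, splicing states or lobule positions had the sample as a block. Their p-values measure how differences within samples vary between samples.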

Additional observations from a re-analysis of the deposited data

Results flagged for a closer look

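Changes that differ between groups under the same contrast drew a closer look. The change from L to PH differed between hepatocyte and endothelial nuclei for every one of the 8 genes by a test of the difference itself, hepatocyte minus endothelial on the log2 scale: -4.01 for *Pck1*, -3.33 for *G6pc*, -3.33 for *Fbp1*, -3.13 for *Sds*, -2.99 for *Tat*, -2.34 for *Slc37a4*, -2.12 for *Ppargc1a* and -1.76 for *Pcx*. The endothelial nuclei served as background here: by the estimate from barcodes of 150 to 600 UMIs outside the table of nuclei, free RNA would amount to between 28.7% and 89.7% of their UMIs of these genes in PH and between 23.2% and 49.2% in L, and by that from 10 to 100 UMIs to at most 6.60% in either. Its part in these differences was not tested. The portal to central difference of hepatocyte nuclei was smaller in CS than in L for *Pck1* (CS minus L, -0.74) and *G6pc* (-0.51), again by a test of the difference itself. No sample stood apart from its group by Dixon's criterion, checked for 24 groups of 8 samples.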

How the results depend on the processing

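In hepatocyte nuclei the 8 calls of PH vs L and the 8 of PH vs CS kept their direction and their side of the threshold in each of the 176 and 176 values computed under the alternatives. The number of members called higher in CS than in L, 5, was 3 with the pool as a covariate, 3 with unspliced UMIs alone, 2 within the pools that held both L and PH, and 3 to 5 when 1 mouse was left out. With the mouse as a replicate block it stayed 5, and 14291 (PH vs L), 13383 (PH vs CS) and 6291 (CS vs L) genes were called against 14379, 13500 and 5983 without it. The genes called in CS vs L were 3288 after thinning to the smallest total and 1490 within the pools with both L and PH; within the same pools 9208 genes were called in PH vs L and 8618 in PH vs CS, and fewer samples entered these fits. In endothelial nuclei PH vs L gave 3818 genes under filterByExpr, which tests fewer genes, against 6181. Of the members called between hepatocyte and endothelial nuclei of PH, 1 was higher without TMM scaling and 1 under filterByExpr, and 1 was lower among nuclei of at least 1000 UMIs; the cause was not tested. With ambiguous UMIs added to the spliced ones, 0 members shifted toward unspliced from L to CS, and *Ppargc1a* was at -0.26 (adjusted p = 0.237), while *G6pc* in CS vs L (0.48, adjusted p = 0.00139) and *Ppargc1a* in PH vs L (0.46, adjusted p = 0.0127) were called toward spliced. With library totals, the spliced shift was lost for *Slc37a4* in PH vs L (adjusted p = 0.228) and for *G6pc* and *Slc37a4* in PH vs CS (0.407 and 0.508). With spliced UMIs alone *Pcx* was called higher in CS than in L (0.62, adjusted p = 0.00961) and the call of *Slc37a4* was lost (0.57, adjusted p = 0.0569). No called value changed sign. Some values that were not called did, among them *Pcx* in CS vs L (0.01, and -0.02 with the mouse as a replicate block) and *Ppargc1a* in CS vs L when some of the mice were left out. Shares of nuclei with a UMI moved by more than 1 SD in 45 of 48 values when thinned to 500 UMIs or not thinned, since they follow depth.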
